A study of Homo sapiens with 9 samples.

Results

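The count table of 9 RNA-seq libraries was used here for its 3 wild-type libraries of definitive endoderm, chosen by their genotype label, and the levels below describe the genes of this unperturbed state. The table had 26240 genes with a row, of which 25286 had at least 1 count in these 3 libraries. H9 is an established human embryonic stem cell line, and the cells of all groups were endoderm derived from it. The study compared wild-type cells with cells in which CHD7, a chromatin remodeller gene, had been deleted by CRISPR/Cas9 on 1 or both alleles, with 3 libraries for each of the 3 genotypes. The other 6 libraries enter no level or rank here, though they may have decided which genes have a row. Stem cells were kept in mTeSR Plus on Matrigel. The sources used here do not give the steps that turned them into endoderm or the day of harvest. Nor do they say whether the wild-type libraries came from separate cultures, from the parental line or from a clone that had passed through editing. The spread between these libraries may therefore be technical.

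Definitive endoderm is the germ layer that gives rise to the lining of the gut, the liver, the pancreas and the airways. It forms from the primitive streak where Nodal, a ligand of the TGF-beta superfamily, signals through activin receptors, a co-receptor of the CRIPTO family and SMAD2 and SMAD3. These bind DNA with partners such as FOXH1 and EOMES. Nodal also turns on its own secreted inhibitors, among them LEFTY1, LEFTY2 and CER1, so a cell under this signal makes both the ligand and its brakes.

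The 3 libraries held 37519729, 31128215 and 24781297 counts for replicates 1, 2 and 3. In the same order, 24042, 23452 and 23064 genes had at least 1 count. CHD7, the targeted gene, stood at 193.7, 190.9 and 183.8 CPM (counts of a gene relative to the library total) in the wild-type libraries, at 111 to 132 CPM in the libraries labelled heterozygous and at 43.5 to 56.6 CPM in those labelled homozygous. The wild-type libraries were the highest of the 3 genotypes. Replicates 2 and 3 were closer to each other than either was to replicate 1: the chi-square per degree of freedom of their gene counts was 2.55, against 9.32 for replicates 1 and 2 and 8.63 for replicates 1 and 3. No pair differed by counting error alone. Genes that replicate 1 holds apart are described at the end, and every level is given for each library.

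All 5 markers of the cell type were high in all 3 wild-type libraries. To compare genes with each other, counts were also divided by exon length and scaled to the same sum in each library (TPM). A gene with at least 1 TPM in each library is termed expressed, one with at least 100 TPM in each abundant, and one below 0.1 TPM in each silent. CER1, a secreted inhibitor of Nodal, BMP and Wnt ligands, stood at 21858, 19799 and 19345 TPM in replicates 1, 2 and 3. SOX17, the SRY-box factor that marks definitive endoderm, stood at 1033, 1047 and 1049 TPM (1043 ± 8.48, SD, n = 3). CXCR4, a chemokine receptor used to sort these cells, stood at 1058, 906 and 904 TPM, EOMES, a T-box factor of the streak, at 820, 811 and 800 TPM, and GATA6, a zinc-finger factor of endoderm, at 619, 628 and 612 TPM. SOX17, EOMES and GATA6 varied by less than 2% of their mean between the libraries (coefficients of variation 0.813%, 1.21% and 1.33%), whereas CXCR4 was higher in replicate 1 than in the others. In counts from whole cultures, fewer cells of a type and less RNA per cell cannot be told apart.

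Markers of other cells that such a culture could hold were low beside these. The 5 endoderm markers summed to 25388, 23193 and 22710 TPM, most of it from CER1. The markers of undifferentiated stem cells (POU5F1, NANOG, SOX2, DPPA4 and ZFP42) summed to 332, 265 and 247 TPM, and all 5 of them were expressed. DPPA4 and ZFP42 together made up the larger part of each of these sums. The sums were 4.73 to 6.16 TPM for mesoderm, with 5 of 6 markers in the table, and 0.0711 to 0.201 TPM for SOX1 and PAX6 of neuroectoderm. They were 1.18 to 1.39 TPM for the 4 markers of trophoblast and amnion, and 14.6 to 15.5 TPM for the 3 visceral endoderm markers in the table, nearly all of it from APOA1. They were 7.99 to 14.4 TPM for fibroblasts, nearly all of it from COL1A1, and 1.07 to 1.18 TPM for blood and endothelium. In each of these last 6 groups at most 1 marker was expressed. No marker with a row in the table lacked reads altogether. FOXF1, TTR and DCN had no row and were not analysed.

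For the cell types with at most 1 expressed marker, the longer lists were less uniformly low than their few markers. Of 17 paraxial and lateral mesoderm genes with a row 8 were expressed, and of 25 neuroectoderm genes 10. Of 16 trophoblast and amnion genes 7 were expressed, and of 20 blood and endothelium genes 8. In that order, these lists summed to 60.2 to 67.7, 339 to 346, 146 to 169 and 247 to 258 TPM. The lists for visceral endoderm and for fibroblasts are given in more detail. Of 27 members of the primitive and visceral endoderm list with a row, 19 were expressed (70.4%, close to the 72.2% of all protein-coding genes). The abundant ones were 5: APOE, GATA6, SPARC, APOC1 and COL4A1. SOX7 and TF, the transferrin gene, were silent, and CITED1 had no read. GATA6 is also a marker of definitive endoderm, so the lists are not separate. Of 10 members of the fibroblast and stroma list with a row, 6 were expressed (60.0%, below that share of all protein-coding genes). TAGLN was the abundant one, COL1A2, a chain of collagen I, stood at 18.2, 19.6 and 18.0 TPM, and PDGFRB, a receptor of mesenchyme, at 12.1, 13.2 and 12.3 TPM. COL3A1 and POSTN of that list were silent. The part of such cells in these levels was not tested.

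A small number of genes held much of the RNA. The 10 genes with the highest mean CPM took 7.21%, 6.96% and 7.10% of the counts of the 3 libraries, the top 100 took 23.1% to 23.7%, and the top 1000 took 55.8% to 56.4%. Most of the first 10 serve every cell: MT-CO1, MT-CO2, MT-CO3 and MT-ND4 of the respiratory chain, the mitochondrial ribosomal RNA MT-RNR2, the translation factor EEF1A1, and the actins ACTB and ACTG1. The remaining members were both secreted Nodal inhibitors. CER1 ranked 4 with 7657, 6878 and 6810 CPM, and LEFTY2 ranked 10 with 5802, 4109 and 4266 CPM. The keratin KRT8 ranked 11, the ligand FGF17 24, the heparan sulfate carrier GPC4 25 and the RNA-binding factor LIN28A 33. The plot of CPM against rank shows these genes on the upper shoulder of the curve.

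**Figure D1:**
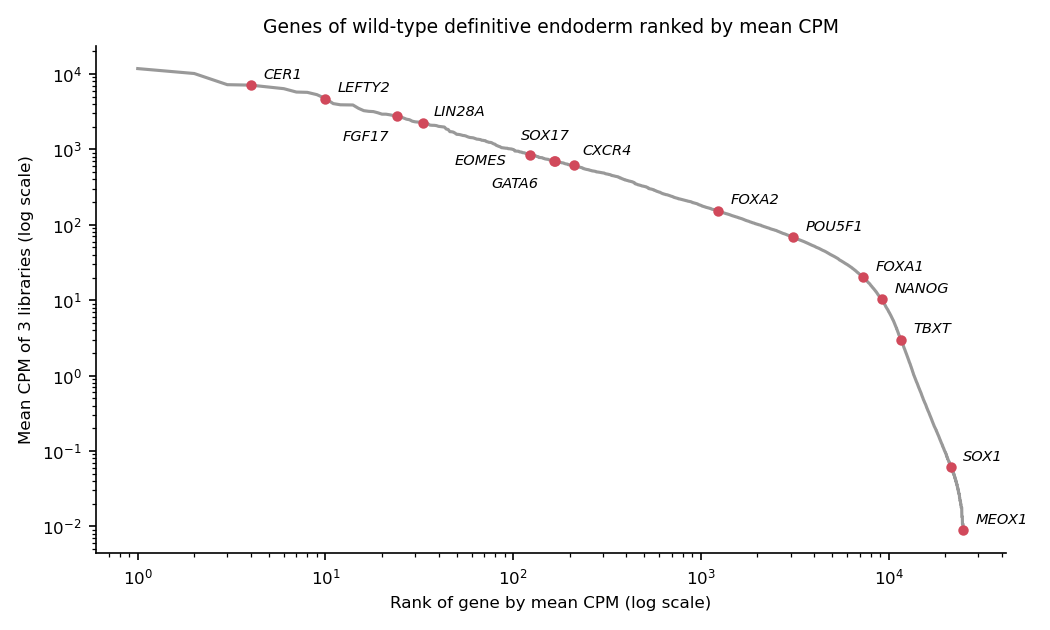
Mean CPM of the 3 wild-type libraries (vertical axis, log scale) against the rank of each gene (horizontal axis, log scale), with selected genes as red points. CER1 lies at rank 4 and LEFTY2 at rank 10, the markers SOX17, GATA6, EOMES and CXCR4 between ranks 123 and 212, and SOX1 and MEOX1 at the far end of the curve.

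Of 25209 genes with an exon length, 14098 (55.9%) were expressed, 1312 of them abundant, and 2400 (9.52%) were silent, 866 of these with no read in any of the 3 libraries. Among 16177 protein-coding genes with a row, 11680 (72.2%) were expressed and 1300 (8.04%) silent. Counts of expressed and silent members of classes, families and lists are to be read beside these shares. The median level was 2.36 TPM over all genes with a length and 9.43 TPM over the protein-coding ones. A further 3774 protein-coding genes of the annotation had no row and were not analysed. They count neither as expressed nor as silent. The rule that gave a gene a row is not stated. Since 954 genes with a row had no count in the wild-type libraries, counts in the other genotypes may have decided it. The numbers and shares of silent genes and of genes without reads depend on that rule.

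Against the shares over all genes the definitive endoderm list stood high: 27 of its 29 members were expressed, 18 of them abundant. Its median was 293 TPM, and it had no silent member. The list was drawn up with earlier results of these data known, so its count describes these libraries and is no independent support for their label. The highest means in it were those of CER1, LEFTY2, MIXL1 and NODAL, and FOXA1, TRPA1 and APLNR were among the lower of its expressed members. The 2 members short of the threshold were APELA, a short peptide ligand of the apelin receptor, at 2.30, 0.182 and 0.451 TPM, and the ribonuclease gene RNASE4 at 0.0707, 0.043 and 0.107 TPM. APELA was thus expressed in replicate 1 alone.

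The 2 highest signalling genes by TPM, CER1 and LEFTY2, were secreted inhibitors. This class of 108 members in the table took 2.04%, 1.74% and 1.75% of all counts. The 237 ligands took less, 0.893% to 0.900%, and the 347 receptors and co-receptors more, 2.31%, 2.20% and 2.17%. The gene for CER1 lies on the minus strand of chromosome 9 at 14719724 to 14722717 (hg38). LEFTY2, the TGF-beta superfamily inhibitor that blocks Nodal at its receptors, stood at 8412, 6008 and 6156 TPM (6859 ± 1348, SD, n = 3). Its neighbour LEFTY1 stood at 1255, 922 and 966 TPM. In both LEFTY genes replicate 1 lay above the others, which were close to each other. The split of reads between the pair is uncertain, because 22.0% of the 50-base windows of the longest LEFTY2 transcript also occur in LEFTY1, and 52.9% of those of LEFTY1 occur in an overlapping gene model, AL117348.2. The Wnt inhibitor SFRP1 was steady at 989, 980 and 977 TPM, and its range overlapped that of LEFTY1. SHISA2, which holds back Wnt and FGF receptors inside the cell, stood at 339, 268 and 272 TPM. FST, which traps activins, stood at 172, 201 and 201 TPM. The class by symbol also took in protease inhibitors that act inside cells, such as SERPINH1, a collagen chaperone, at 498, 512 and 515 TPM, and SERPINB9, a granzyme inhibitor, at 533, 363 and 353 TPM.

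The promoter of CER1 is shown because it drives the most abundant gene of the endoderm list, beside those of the factor genes MIXL1 and EOMES. Each is the RefSeq window of GRCh38.p14 from 250 bases before to 50 bases after the start of the gene, read 5′ to 3′ on the strand of the gene. CER1 spans chr9:14722684-14722983 on the minus strand, MIXL1 chr1:226223414-226223713 on the plus strand and EOMES chr3:27722274-27722573 on the minus strand. Capitals mark AATCCACA, the letters bound by FOXH1, in MIXL1 and TATAAA, a form of the TATA box, in EOMES. Each was found on the opposite strand of the window and so is printed as its reverse complement.
CER1: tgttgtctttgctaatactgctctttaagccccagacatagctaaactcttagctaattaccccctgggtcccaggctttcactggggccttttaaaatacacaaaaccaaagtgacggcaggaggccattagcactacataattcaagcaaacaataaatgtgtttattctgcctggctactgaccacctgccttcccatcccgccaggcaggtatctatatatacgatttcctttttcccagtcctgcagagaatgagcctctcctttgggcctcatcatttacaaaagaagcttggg
MIXL1: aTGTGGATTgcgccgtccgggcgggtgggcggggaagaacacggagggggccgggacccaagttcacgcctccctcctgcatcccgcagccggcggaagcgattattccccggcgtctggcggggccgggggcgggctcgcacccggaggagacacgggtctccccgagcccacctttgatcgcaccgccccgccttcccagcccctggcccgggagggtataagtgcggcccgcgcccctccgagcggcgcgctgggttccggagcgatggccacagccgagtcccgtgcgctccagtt
EOMES: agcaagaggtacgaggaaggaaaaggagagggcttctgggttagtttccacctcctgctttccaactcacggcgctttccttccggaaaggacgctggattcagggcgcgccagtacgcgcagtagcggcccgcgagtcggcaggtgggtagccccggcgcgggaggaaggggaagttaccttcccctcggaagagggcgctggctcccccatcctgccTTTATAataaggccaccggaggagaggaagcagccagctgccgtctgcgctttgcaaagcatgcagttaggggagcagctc
The CER1 window was poor in CpG, with 45.3% G and C and a ratio of observed to expected CpG of 0.203. The MIXL1 window had 73.3% and 0.917, and that of EOMES had 61.7% and 0.744. The median ratio was 0.882 over 1051 abundant protein-coding genes with a window and 0.433 over 967 silent ones, so CER1 lay below the median of the silent genes while MIXL1 lay above that of the abundant ones. Searched on both strands for exact matches, the CER1 window held neither of these motifs. It also lacked the letters AGATAAG, which are typical of sites for zinc-finger factors such as GATA6, the forkhead letters TGTTTAC, and AGGTGTGA of T-box factors. In MIXL1 and EOMES the motif shown was the only one of these 5 found. Related letters were not searched for, such as the run tatatata in the CER1 window and tataag in that of MIXL1. A window without TATAAA may therefore still hold a TATA-like stretch. AATCCACA occurs in 0.798% and TATAAA in 12% of all 27305 windows in the RefSeq table. Of the 29 genes of the endoderm list, 20 had a window, and 5 of these (25.0%) held TATAAA. The share was about the same, 8 of 31 (25.8%), among silent members of the other-lineage lists. A match says that the letters are present, not that a factor binds there.

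NODAL was the second most abundant ligand by TPM, and the other parts of its pathway spanned a wide range. By mean CPM, which is not divided by length, NODAL (527.7) lay below HDGF (818.6), STC1 (663.1) and MDK (615.8). NODAL stood at 1133, 1066 and 1048 TPM. TDGF1, the CRIPTO co-receptor, stood at 1195, 1170 and 1106 TPM, with the limit that 40.7% of the 50-base windows of its longest transcript also occur in the processed copy TDGF1P3. Ligand and co-receptor were thus at about the same level in every library. The receptors and signal carriers were far lower per transcript length: the type II receptor ACVR2B stood at 42.0, 40.3 and 37.9 TPM, the type I receptor ACVR1B at 39.2, 35.2 and 35.4 TPM, SMAD2 at 12.8, 15.7 and 14.5 TPM, and SMAD3 at 16.7, 18.0 and 17.7 TPM. SMAD4, the shared partner of these factors, stood at 18.2, 19.7 and 19.8 TPM. FOXH1, the forkhead partner of SMAD2, was abundant at 193, 165 and 164 TPM. GDF3, a ligand related to Nodal, stood at 9.10, 18.4 and 18.1 TPM, with replicate 1 below the others. INHBA, which encodes the activin A subunit, had no count in any of the 3 libraries, and INHBB, that of activin B, had reads in replicate 3 only. A count of 0 over the 3 libraries allows up to 0.0321 CPM (3 counts of their total, covering counting error only). Of the 29 members of the Nodal and Activin list with a row, 24 were expressed (82.8%, against 72.2% of all protein-coding genes). Of these 9 were abundant, and the median of the list was 53.6 TPM. The summed level of the Nodal and BMP inhibitor family was 32085, 27314 and 27042 TPM, and that of all TGF-beta superfamily ligands 1747, 1712 and 1703 TPM.

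**Figure D2:**
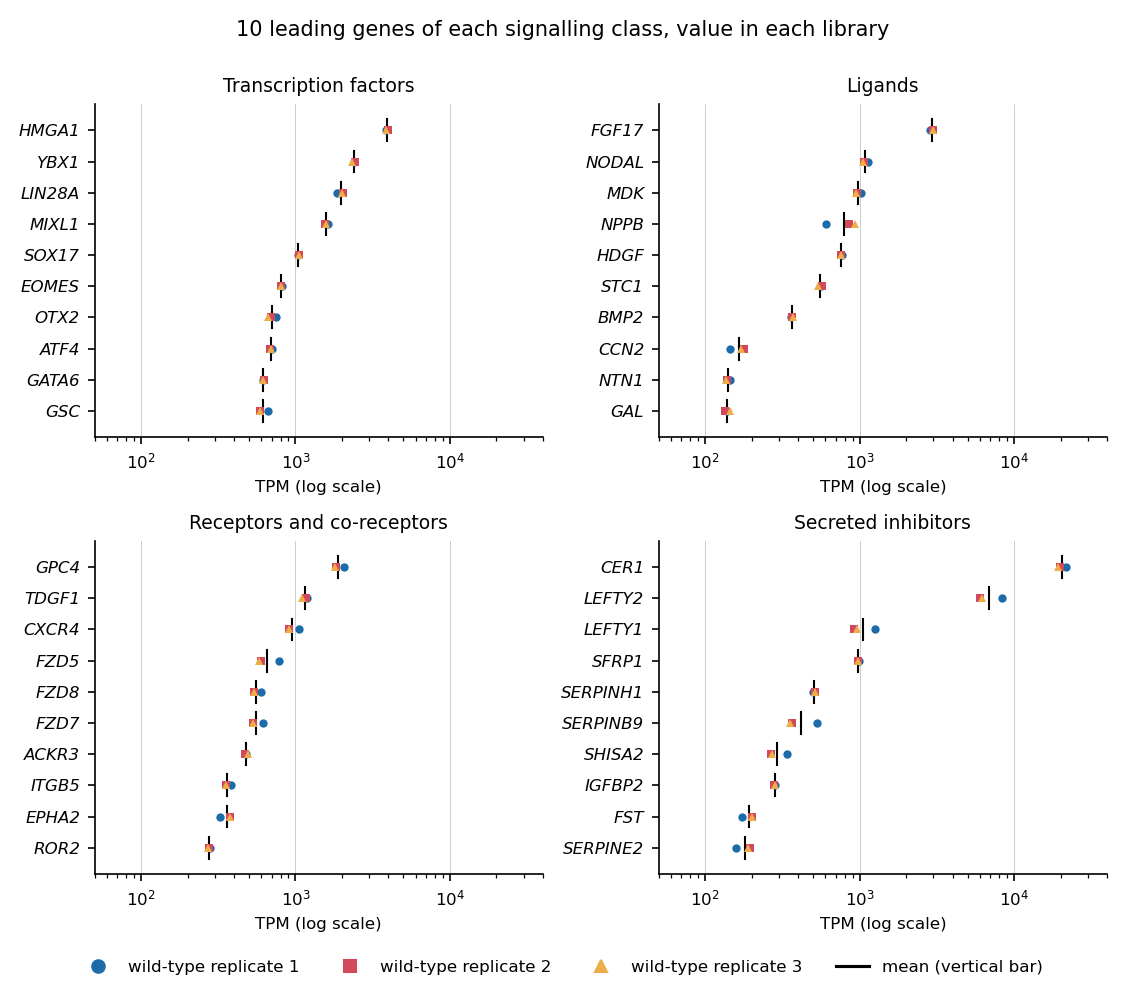
TPM (horizontal axes, log scale) of the 10 leading genes of 4 signalling classes in each wild-type library, with points for the libraries and a vertical bar for their mean. CER1 and LEFTY2 lie to the right of all genes of the other classes, and replicate 1 stands apart for LEFTY2, SERPINB9, FZD5 and NPPB.

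Among transcription factors, 410 of 688 members in the table were expressed (59.6%), 39 abundant and 92 silent (13.4%). Over all protein-coding genes the shares were 72.2% expressed and 8.04% silent. The 3 highest of the class, chosen by symbol, are general or RNA-binding proteins: HMGA1, an architectural chromatin protein, at 3842, 3977 and 3882 TPM, YBX1, a cold-shock protein, and LIN28A, a repressor of let-7 processing in stem cells. The factors of the streak and endoderm followed. MIXL1, the homeobox factor of the mesendoderm, stood at 1626, 1557 and 1565 TPM, above SOX17, EOMES, and OTX2, a homeobox factor of anterior endoderm and head, at 743, 692 and 668 TPM. The ranges of MIXL1, SOX17, EOMES and OTX2 did not overlap, so their order held in every library. GSC, the homeobox repressor of the organizer, stood at 666, 590 and 592 TPM and overlapped GATA6. FOXA2, the pioneer factor that opens endodermal enhancers, was lower at 229, 190 and 196 TPM. HHEX, a homeobox factor of the anterior definitive endoderm, stood at 164, 161 and 153 TPM.

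Factors of the same families differed widely from each other. FOXA3 stood at 53.0, 30.8 and 30.8 TPM and FOXA1 at 22.7, 14.5 and 15.8 TPM, both below FOXA2 in every library and both highest in replicate 1. GATA4, a partner of GATA6 in later endoderm and heart, stood at 34.2, 40.3 and 51.9 TPM. Of the 5 GATA factors with a row, 3 were expressed and GATA2 and GATA5 were silent, the latter without a read. Of 139 homeobox genes with a row, 52 were expressed, 4 of them abundant, and 29 silent. Of 18 SOX and SRY-like genes 12 were expressed, led by SOX17. SOX7, the near relative of SOX17 in visceral endoderm, had 1 read in replicate 1 and none in the others, with the limit of shared windows given above. The zinc-finger factor ZIC2, known from stem cells and neural plate, was abundant at 316, 321 and 312 TPM, and ATF4, the stress-response factor, stood at 706, 684 and 691 TPM.

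FGF17 was the leading ligand. FGF17, a member of the FGF8 subfamily that signals through FGF receptors to ERK, stood at 2854, 2985 and 2975 TPM (2938 ± 73.3, SD, n = 3), above NODAL in every library. FGF8 itself stood at 99.5, 106 and 107 TPM. FGF2, the growth factor of stem cell media, stood at 3.40, 2.11 and 1.87 TPM, and FGF4, an FGF of stem cells, at 0.772, 0.139 and 0.215 TPM. The 4 receptor genes lay close together, FGFR1 at 42.2, 38.7 and 39.9 TPM, FGFR4 at 40.1, 33.0 and 32.5, FGFR3 at 29.8, 32.2 and 30.1, and FGFR2 at 25.1, 25.4 and 25.0. Genes known to rise under ERK signalling were among the leading members of this pathway: the phosphatase DUSP4 at 200, 229 and 217 TPM, the feedback inhibitor SPRY4 at 148, 138 and 131 TPM, and the ETS factor ETV4 at 123, 113 and 111 TPM. Of 29 members of the FGF list with a row, 22 were expressed (75.9%, against 72.2% of all protein-coding genes) and FGF5 was silent.

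Other abundant ligands came from several families. Midkine (MDK), a heparin-binding growth factor, stood at 1023, 957 and 940 TPM. NPPB, the precursor of the B-type natriuretic peptide, stood at 606, 850 and 931 TPM, with replicate 1 well below the others. BMP2 stood at 359, 366 and 367 TPM, far above BMP4 at 21.1, 26.2 and 31.3 TPM and BMP7 at 49.9, 49.1 and 51.2 TPM. The BMP targets ID1 (10.3, 8.29 and 8.81 TPM), ID2 (15.8, 12.7 and 13.1) and ID3 (24.0, 19.6 and 19.8) were expressed. The levels of ligands and targets do not measure the strength of the signal, which was not tested. Of 33 members of the BMP list with a row, 24 were expressed (72.7%, against 72.2% of all protein-coding genes). The median of the list was 13.9 TPM. STC1, a secreted glycoprotein hormone, stood at 559, 567 and 539 TPM, and its levels in the 3 libraries lay within a narrow range.

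For Wnt signalling a few receptors were abundant and no ligand was. GPC4, a cell-surface heparan sulfate proteoglycan that binds Wnt and other ligands, stood at 2059, 1835 and 1790 TPM, the highest of the 347 receptor and co-receptor genes in the table. The Frizzled receptors FZD5 (781, 600 and 578 TPM), FZD8 (601, 537 and 537) and FZD7 (612, 527 and 528) followed, each highest in replicate 1. The range of FZD8 overlapped those of FZD5 and FZD7. ROR2, a receptor of noncanonical Wnt ligands, stood at 278, 276 and 270 TPM. Of 28 genes of the Wnt receptor family 25 were expressed, 7 of them abundant and none silent. Of 18 Wnt and R-spondin ligands with a row only 5 were expressed and 5 were silent. The highest was RSPO4 at 17.5, 15.6 and 15 TPM, followed by WNT3, the inducer of the streak, at 5.01, 4.38 and 3.95 TPM, and WNT3A had no read. AXIN2, a general target and brake of canonical Wnt signalling, stood at 56.1, 57.9 and 57.1 TPM, SP5, another such target, at 26.6, 20.8 and 20.5 TPM, and LEF1 at 0.069, 0.335 and 0.390 TPM. Of 61 members of the Wnt list with a row 40 were expressed (65.6%, against 72.2% of all protein-coding genes). Of these 9 were abundant, and the median of the list was 8.73 TPM.

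Chemokine, guidance and growth factor receptors showed a few high members each. ACKR3, the scavenging receptor that shares a ligand with CXCR4, stood at 476, 474 and 491 TPM. That ligand, CXCL12, stood at 14.8, 24.8 and 24.7 TPM, and none of the 40 chemokine and cytokine ligands with a row was abundant. EPHA2, an ephrin receptor, stood at 323, 377 and 378 TPM, the integrin subunit ITGB5 at 380, 353 and 353 TPM and ITGB1 at 246, 268 and 257 TPM. KIT, the stem cell factor receptor that is used with CXCR4 to recognise definitive endoderm, stood at 151, 157 and 154 TPM. KDR, the VEGF receptor of endothelium and early mesendoderm, stood at 20.8, 28.5 and 26.3 TPM. The libraries were close for KIT, while KDR and CXCL12 were lowest in replicate 1.

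The matrix genes were led by the collagen VI chain COL6A1 at 568, 596 and 593 TPM and by SPARC, a collagen-binding glycoprotein, at 522, 570 and 556 TPM, whose ranges overlapped. They were followed by the membrane protease MMP14 at 406, 376 and 370 TPM and by TSKU, a small leucine-rich protein, at 332, 391 and 387 TPM. Of 249 matrix genes with a row, 142 were expressed (57.0%, against 72.2% of all protein-coding genes), 24 of them abundant. The class took 1.68%, 1.63% and 1.63% of counts. Basement membrane chains were represented by COL4A1 (168.8, 195.5 and 186.3 TPM), LAMB1 (74.98, 74.3 and 71.1), LAMC1 (39.5, 39.9 and 40.3) and LAMA1 (30.6, 34.4 and 33.9), the subunits of collagen IV and of laminin-111. Fibronectin (FN1) differed between the libraries, at 200, 116 and 110 TPM, and replicate 1 alone lay above the mean of 142 TPM. The interstitial collagen COL1A1 stood at 14.2, 7.85 and 7.76 TPM, and COL3A1 was silent.

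Cell adhesion genes showed N-cadherin with little E-cadherin. CDH2, the N-cadherin gene, stood at 838, 908 and 854 TPM, and CDH1, the E-cadherin gene of epithelia and stem cells, at 2.33, 0.437 and 0.496 TPM. Epithelial keratins and a claudin were abundant all the same: KRT8 at 1863, 2079 and 2185 TPM, KRT18 at 1454, 1675 and 1741, KRT19 at 771, 685 and 725, and CLDN6 at 1131, 1140 and 1179. VIM, the intermediate filament of mesenchyme, stood at 834, 1162 and 1198 TPM, SNAI1, a repressor of CDH1, at 42.5, 41.9 and 43.1 TPM, and EPCAM at 240, 144 and 137 TPM. SNAI1 was thus level across the 3 libraries, while CDH1 and EPCAM were highest and VIM lowest in replicate 1. KRT8 and KRT18 have processed copies, and 22.1% and 21.7% of the 50-base windows of their longest transcripts occur in other genes.

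**Figure D3:**
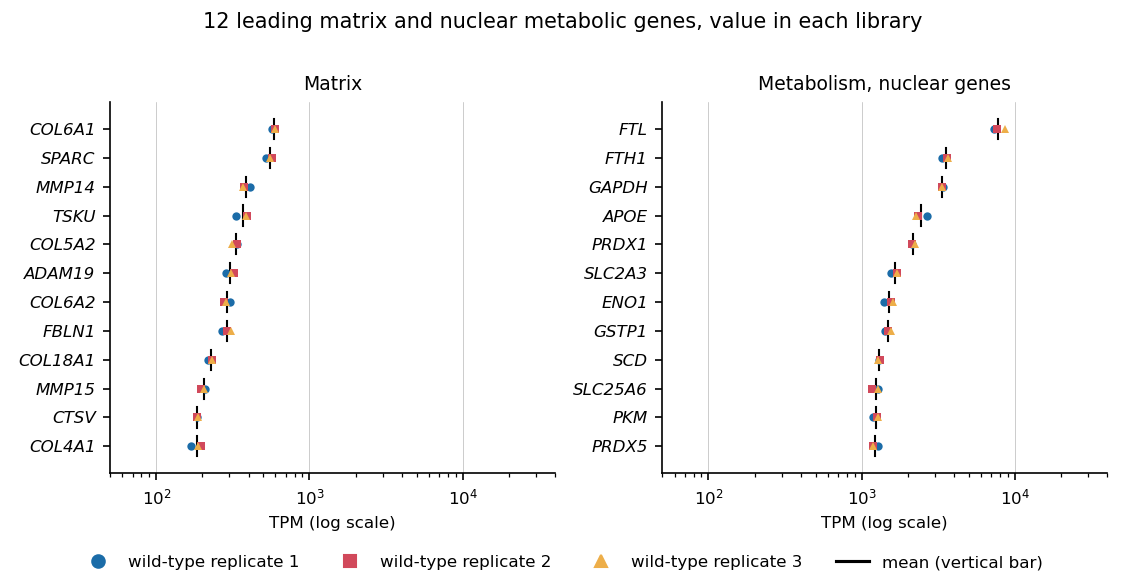
TPM (horizontal axes, log scale) of the 12 leading matrix genes and the 12 leading metabolic genes outside the mitochondrial genome in each wild-type library, with a vertical bar for the mean. Neighbouring matrix genes mostly overlap, and FTL leads the metabolic genes, followed by FTH1 and GAPDH, whose ranges overlap.

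Metabolic genes took 10.9%, 11.2% and 11.5% of counts, and 410 of the 493 in the table were expressed (83.2%), 131 of them abundant. The 13 protein genes of the mitochondrial genome alone took 4.66%, 4.89% and 4.99% of counts. Outside that genome the ferritin light chain FTL stood at 7272, 7605 and 8589 TPM and the heavy chain FTH1, which stores iron with it, at 3334, 3598 and 3673 TPM. The glycolytic enzyme GAPDH stood at 3395, 3330 and 3328 TPM, the glucose transporter SLC2A3 at 1547, 1703 and 1706 TPM, and ENO1 at 1400, 1553 and 1596 TPM. SLC2A1, the more general glucose transporter, was lower at 62.5, 62.2 and 60.6 TPM. The range of GAPDH overlapped that of FTH1. The level of SLC2A3 carries the limit that 20.3% of its 50-base windows occur in its paralog SLC2A14, and 40.4% of those of FTH1 and 18.3% of those of FTL occur in other genes. Lipid synthesis was represented by the desaturase SCD at 1289, 1325 and 1284 TPM, FASN, the fatty acid synthase, at 792, 909 and 930 TPM, and HMGCS1 of the sterol pathway at 693, 826 and 774 TPM. Of 42 genes of sterol and fatty acid synthesis 39 were expressed, 17 of them abundant.

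Lipoprotein and retinoid genes were uneven. APOE stood at 2683, 2321 and 2269 TPM and APOC1, its neighbour, at 214, 194 and 209 TPM, whereas APOA1 stood at 15.2, 14.5 and 14.9 TPM and APOB at 0.143, 0.121 and 0.169 TPM. Other genes hold 40.5% of the 50-base windows of APOC1. CYP26A1, the enzyme that breaks down retinoic acid, stood at 1024, 950 and 1041 TPM. An overlapping gene model, AL358613.3, shares 32.0% of the 50-base windows of CYP26A1. ALDH1A2, the main embryonic enzyme that makes retinoic acid, was silent at 0.0322, 0.0521 and 0.0646 TPM. ALDH1A3 of the same enzyme family was expressed at 15.4, 17.7 and 18.3 TPM. The degrading enzyme thus stood far above the makers in each library on the TPM scale. Of the 19 retinoic acid pathway genes with a row 14 were expressed (73.7%, against 72.2% of all protein-coding genes).

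Genes of the stem cell state spanned a wide range. Of 27 members of the pluripotency list, 20 were expressed (74.1%, close to the 72.2% of all protein-coding genes), 6 of them abundant, with a median of 20.4 TPM, and UTF1 had no read. LIN28A stood at 1869, 2031 and 1998 TPM, L1TD1, an RNA-binding protein of stem cells, at 647, 669 and 624 TPM, and DNMT3B, a DNA methyltransferase, at 252, 228 and 227 TPM. The core factors were lower. POU5F1 stood at 113, 66.3 and 66.5 TPM, SOX2 at 9.75, 5.54 and 4.49 TPM, and NANOG at 7.95, 5.79 and 5.99 TPM. All 3 were highest in replicate 1, so the level of the core factors in the wild-type group depends in part on that library. The RNA-binding genes LIN28A and L1TD1 showed no such excess.

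The leading long noncoding RNA came from the locus of the miR-302 cluster, whose miRNAs are known to be made in stem cells. MIR302CHG, the host transcript of the cluster on the minus strand of chromosome 4 (112646476 to 112650051, hg38), stood at 2843, 2483 and 2478 TPM (2601 ± 209, SD, n = 3). GENCODE 29 classes it as antisense, and with the strand setting unknown, reads of a gene on the other strand cannot be told apart from its own. The mature miRNAs are not measured by these counts. They are shown, from RefSeq (GRCh38.p14), because the 4 miR-302 members share 1 seed, given in capitals as bases 2 to 8, while miR-367 of the same transcript has another.
hsa-miR-302a-3p: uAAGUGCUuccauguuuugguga
hsa-miR-302b-3p: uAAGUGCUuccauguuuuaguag
hsa-miR-302c-3p: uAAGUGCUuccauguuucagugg
hsa-miR-302d-3p: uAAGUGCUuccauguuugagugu
hsa-miR-367-3p: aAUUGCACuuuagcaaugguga
The next named long noncoding RNAs were LINC00458 at 561, 492 and 506 TPM, SNHG29 at 475, 471 and 489 TPM, LINC02575 at 334, 411 and 418 TPM and LINC01356 at 432, 361 and 367 TPM. LINC02575 was lowest in replicate 1, and LINC00458 and LINC01356 were highest there.

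Several factors of the later primitive streak and of mesoderm were low or without reads, whereas streak genes shared with endoderm were high. Of 19 members of the primitive streak list with a row, 12 were expressed. FGF17, MIXL1, NODAL, EOMES and GSC, all shared with endoderm, were abundant. TBXT, the T-box factor of the streak and notochord, stood at 3.20, 3.89 and 4.82 TPM. TBX6, a factor of paraxial mesoderm, stood at 1.35, 1.07 and 0.932 TPM, MESP1, a factor of cardiac mesoderm, at 0.039, 0.142 and 0.411 TPM, and the notochord factor NOTO had no read. Of 17 paraxial and lateral mesoderm genes with a row, 8 were expressed and 6 silent, among them MEOX1, PAX3 and TCF21, and the highest was BMP4.

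The 12 lists of other or later lineages together had 172 members with a row, and 44 of these were silent (25.6%, against 9.52% of all genes with a length and 8.04% of the protein-coding ones). The lists were drawn up by hand and hold many tissue-restricted genes, and members without a row lie outside this count. The count leaves out the lists for pluripotency, primitive streak, primitive and visceral endoderm, fibroblasts and HOX genes, which are described on their own. Of 20 genes of blood and endothelium with a row, 8 were expressed, 1 of them abundant, and 8 were silent. Among the silent ones were the endothelial adhesion gene PECAM1 and the blood factors TAL1, SPI1 and FLI1. Of 9 germ cell genes 3 were expressed and 6 silent, including DAZL and TDRD1 with no read. Of 16 trophoblast and amnion genes 7 were expressed and 5 silent. Of 12 genes of surface ectoderm and epidermis 2 were expressed and 3 silent, and KRT7 had no read. In the neuroectoderm list 3 of 25 were silent and 10 expressed. PAX6, the eye and forebrain factor, stood at 0.0711, 0.103 and 0.0535 TPM, and SOX1 at 0, 0.0791 and 0.147 TPM. Only 1 of 39 HOX genes of the list, HOXD1, had a row, with 0, 0.171 and 0.141 TPM. The other HOX genes were not analysed.

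Genes of the organs that endoderm later forms were also mostly low. In the liver list 5 of 19 members with a row were silent and 6 expressed. ALB, the albumin gene, had 1, 0 and 1 reads, and AFP, alpha-fetoprotein of fetal liver and yolk sac, 8, 1 and 0 reads. KRT8 and KRT18 were the 2 abundant members of that list. In the lung, thyroid and intestine list 3 of 11 were expressed and 5 silent, and 2 of the silent ones, CDH17 and PGC, had no read. HNF4A, a nuclear receptor of liver and gut, was expressed at 11.7, 10.3 and 9.77 TPM. NKX2-1 of lung and thyroid stood at 0.175, 0.213 and 0.220 TPM. In the pancreas list 6 of 15 members with a row were expressed, and 1, SST, had no read. That silent share (6.67%) was below the 8.04% of all protein-coding genes. PDX1 of the pancreas had no row. In the foregut and posterior endoderm list 7 of 15 were expressed, 2 silent (PAX8 and PAX9), and the median was 0.463 TPM.

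**Figure D4:**
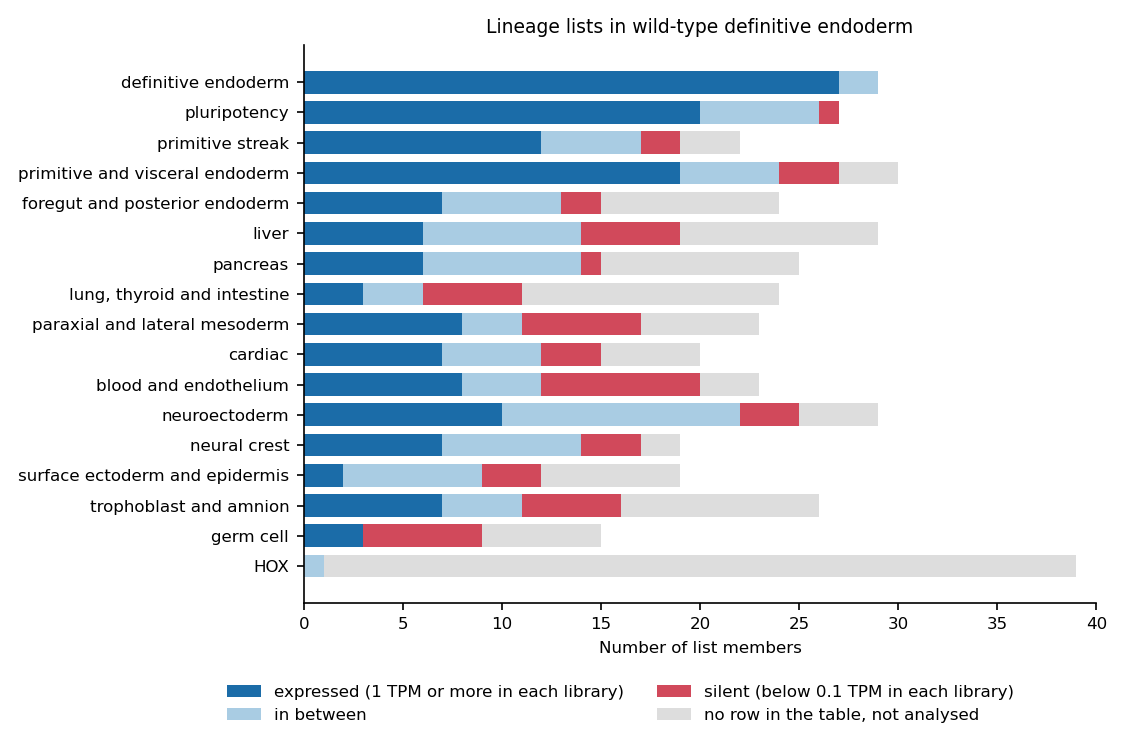
Number of members (horizontal axis) of 17 lineage lists that were expressed, in between, silent or without a row in the count table. The definitive endoderm bar is nearly all expressed, the pluripotency bar mostly so, and the bars of later organs and other lineages hold most of the silent members and of the genes that were not analysed.

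A few genes ascribed to other lineages were high. NES, a filament of neural progenitors, was abundant at 219, 240 and 239 TPM. MYL7, the atrial myosin light chain, stood at 196, 290 and 320 TPM. The cardiac list gave 7 expressed and 3 silent members of 15. MYOCD, with a mean of 69.2 CPM, and MYL4, with 4.51 CPM, were also among its highest members. The sarcomere genes TNNT2, TNNI1 and MYH6 were the silent ones. SOX10, known from neural crest, stood at 25.8, 27.4 and 24.7 TPM. Of 17 members of the neural crest list with a row, 7 were expressed and 3, ZIC1, PAX3 and TFAP2A, were silent. LMX1B, a LIM-homeobox factor of limb and midbrain, stood at 39.9, 44.8 and 44.1 TPM. TAGLN, a smooth muscle actin-binding protein, stood at 370, 578 and 616 TPM, while ACTA2, the smooth muscle actin, stood at 0.186, 0.491 and 0.374 TPM. In MYL7 and TAGLN, replicate 1 was the lowest library, and in SOX10 and LMX1B the libraries were close.

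Replicate 1 was the library in which most variable genes were high. Among 8440 genes with a mean of at least 10 TPM the median coefficient of variation was 4.81%, against 2.60% from counting alone. Among the named protein-coding genes at that level, 291 varied by more than 15%, and replicate 1 was the highest library in 219 of them, replicate 2 in 38 and replicate 3 in 34. The most variable was ESRP1, an epithelial splicing regulator, at 30.8, 10.3 and 8.83 TPM. It was followed by the riboflavin transporter SLC52A3 at 17.3, 7.08 and 7.86 TPM, WFDC2 at 43.7, 17.1 and 21.2 TPM, the interferon-induced BST2 at 128, 59.9 and 52.9 TPM, and the cystatin CST1 at 113, 52.2 and 52.6 TPM. In all 5 the level in replicate 1 was the highest and the others were closer to each other. The rest of the 12 most variable were SPINT1, AP1M2, SCRN1, PMAIP1, ENO2, SSC4D and MAL2, each also highest in replicate 1. Of the 50-base windows of CST1, 27.0% also occur in CST4.

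The excess of replicate 1 was uneven between groups of genes. With a mean of at least 1 TPM as the limit, replicate 1 lay more than 1.5 times above the next library in 513 of 15113 genes (3.39%), replicate 2 in 1.38% and replicate 3 in 1.59%. In the pluripotency list it did so in 7 of 22 members (31.8%): POU5F1, SOX2, ESRG, FGF2, USP44, THY1 and CDH1. In the cell adhesion and keratin list it did so in 6 of 21 (28.6%): CDH1, CDH3, EPCAM, CLDN10, ESRP1 and ESRP2. In the definitive endoderm list it did so in 2 of 27, and in the proliferation list in 0 of 31. Shorter lists had shares of similar size from few genes: 2 of 6 in the fibroblast and stroma list (33.3%), 2 of 7 in the foregut and posterior endoderm list (28.6%), 2 of 10 each in the neuroectoderm and neural crest lists, and 1 of 3 each in the epidermis and the lung, thyroid and intestine lists. In the other direction, replicate 1 lay more than 1.5 times below the next library for GDF3 of the pluripotency list, APLNR of the endoderm list and CLDN5 and SNAI2 of the adhesion list. In the neural crest list it did so for 3 of 10 members, SNAI2, MSX1 and MSX2, against 1.94% of all genes at that level. The markers of undifferentiated stem cells as a sum were 332 TPM in replicate 1 against 265 and 247 TPM, and that library also had the largest total count. The part of either in these differences was not tested. The limit of 1.5 times and the lists named here were chosen after the values were seen.

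**Figure D5:**
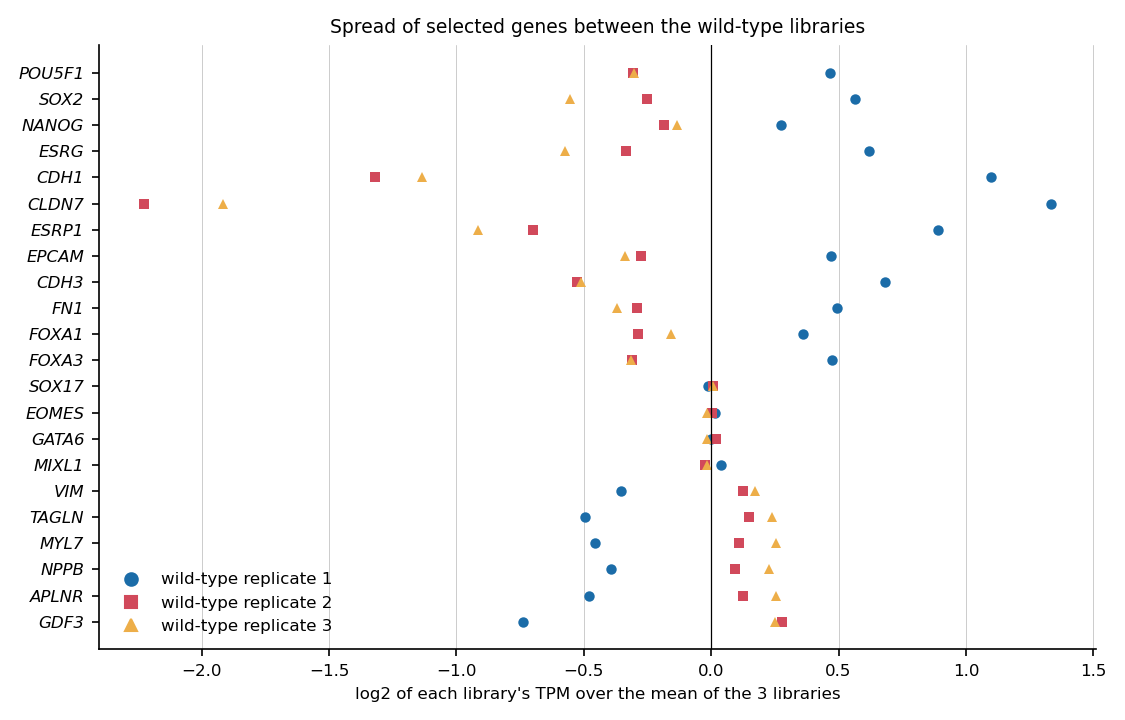
The log2 ratio of each library's TPM to the mean of the 3 wild-type libraries (horizontal axis) for 22 genes chosen after their values were seen. Replicate 1 lies to the right for POU5F1, SOX2, CDH1, CLDN7 and ESRP1, to the left for VIM, TAGLN, MYL7, NPPB, APLNR and GDF3, and the libraries coincide for SOX17, EOMES, GATA6 and MIXL1.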

How the data were processed

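Total RNA of H9-derived endoderm was sequenced on an Illumina NovaSeq 6000, per the labels' protocols. The authors deposited 1 table of gene counts for 9 libraries. The submitters' processing notes name FastQC, Trimmomatic, HISAT2, SAMtools, HTSeq and hg38, with no role or version. The labels and file headers give neither strand setting nor annotation release, so reads of overlapping and antisense genes cannot be told apart.

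The 3 wild-type columns were taken by label. CPM used the total over all genes with a row. TPM used the union of exons in GENCODE 29, which gave lengths for 25209 of 26240 genes. Genes with no symbol in the name table kept their identifiers (21256 had one). Expressed, abundant and silent meant at least 1, at least 100 and below 0.1 TPM in each library. No test was run, because 1 group was described. Functional classes came from symbol patterns for 63 families, and 27 gene lists were written by hand. The members and lists were chosen with earlier results of these data known. The rule for genes the text may name took in the cell type markers, the 10 highest genes by CPM, the 8 highest of each class and 3 of each family, the 4 highest and the silent members of each list, the 12 most variable genes and the 5 highest long noncoding RNAs with a symbol. Not every gene it took in is named, and the selection among them, like other named genes, was made after their values were seen. Read sharing was the share of 50-base windows of a gene's longest transcript found in transcripts of other genes. The script was tested on simulated data. TMM factors came from edgeR 4.0.16 and were 1.01, 0.998 and 0.993. Python 3.11.15 and pandas 2.3.3 were used. Alternatives were other lengths, scalings, filters and thresholds, thinning, and leaving out each library.

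A level of 3 counts equals 0.0800, 0.0964 and 0.121 CPM in replicates 1, 2 and 3. Such floors cover counting error only, since the files give no molecular identifiers.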

Additional observations from a re-analysis of the deposited data

How the results depend on the processing

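The number of genes expressed ranged from 13139 (CPM in place of TPM) to 15801 (threshold of 0.5 TPM) around 14098, and from 14376 to 14464 with 1 library left out. The definitive endoderm list kept 27 expressed members in every alternative run. The number of silent genes was 2400 and depended on the definition: 4140 by CPM, 157 among genes with at least 10 counts over the 3 libraries, 3877 below 0.2 TPM, and 2868 to 3056 with 1 library left out. Of the other-lineage members 44 were silent, 4 of them with at least 10 counts, and 47 to 52 with 1 library left out, so the other silent members had fewer than 10 counts in all. The share of the top 100 genes fell from 23.4% to 20.2% without mitochondrially encoded genes, and was 23.2% to 23.5% with 1 library left out. Of the 10 leading metabolic genes 1 remained without the mitochondrially encoded genes, which that setting removes. With the longest transcript as length, 14 of 342 named genes moved by over 1.5 times, among them KRT8 from 2043 to 3716 TPM, ENO1 from 1516 to 2376, FBLN1 from 287.6 to 547 and LINC00458 from 520 to 907. ESRP1 fell from 16.6 to 9.54 TPM without replicate 1. The order within classes depended on the scale: by mean CPM SLC2A3 (2930) and GAPDH (2877) lay above FTL (1978). No paired analysis was possible because the values come from 1 group and no test was run. The coverage of 3 libraries limits the precision of every mean, and genes below about 3 counts per library cannot be ordered.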

Other observations

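Cell cycle genes were expressed throughout. Of 32 members of the proliferation list 31 were expressed, 8 of them abundant, with a median of 67.7 TPM. MCM6, a subunit of the replicative helicase, stood at 279, 276 and 273 TPM in replicates 1, 2 and 3, PCNA, the replication clamp, at 199.6, 185.2 and 177.3 TPM, and CCNB1, the mitotic cyclin, at 173, 161 and 157 TPM. The inhibitor CDKN1A stood at 1.97, 1.70 and 2.33 TPM and CDKN2A at 0.641, 0.779 and 0.837 TPM, while CDKN1B was abundant at 117, 116 and 108 TPM. CCND1, a D-type cyclin, stood at 15.8, 14.5 and 15.8 TPM, below CCND2 at 27.4, 30.8 and 30.6 TPM.

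Notch and hedgehog genes were of intermediate level. Of 23 Notch pathway genes with a row 15 were expressed (65.2%, against 72.2% of all protein-coding genes) and none abundant. The receptor NOTCH3 led at 90.3, 90.7 and 91.6 TPM, and the ligands were lower, JAG2 at 6.53, 5.39 and 6.01 TPM and DLL1 at 0.143, 0.174 and 0.173 TPM. HES1, a Notch target, stood at 3.54, 1.42 and 1.69 TPM, highest in replicate 1. Of 14 hedgehog pathway genes 11 were expressed (78.6%). The ligand SHH stood at 24.7, 27.9 and 27.7 TPM, the signal carrier SMO at 82.3, 85.2 and 88.6 TPM, and the targets PTCH1 at 7.84, 8.31 and 7.32 TPM and GLI1 at 2.97, 1.47 and 1.96 TPM.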
